A study of Homo sapiens with 7 samples.

Results

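The TRAF adaptors and the kinase NIK were examined in RH30 cells with and without the Smac mimetic BV6. The members are the 7 genes TRAF1 to TRAF7 and MAP3K14, the gene of NIK, and they were taken by symbol from the 57189 genes of the count table. All 8 were found, and all 8 passed the filter on low counts. RH30 cells are a line derived from alveolar rhabdomyosarcoma, a childhood cancer of the skeletal muscle lineage, and its genotype is labeled as wild type. The study counts RH30 among the fusion-positive lines, a subtype with PAX3 or PAX7 joined to FOXO1. Its methods also state that the RH30 cells of the study expressed GFP and luciferase, which the labels do not mention. BV6 imitates Smac, a protein released from mitochondria that blocks inhibitor of apoptosis proteins (IAPs). Poly(A) RNA was sequenced from 4 libraries of untreated cells and 3 libraries of cells kept in 5 µM BV6 for 24 h, all grown in the same serum-containing medium. The control libraries are labeled untreated, and the labels name no solvent control. BV6 replicates 2, 3 and 4 carry the same BC label in their titles as untreated replicates 2, 3 and 4, whereas no BV6 library carries the label of untreated replicate 1. The labels do not say what the BC label stands for. The study calls its RNAseq replicates biological, but neither it nor the labels say whether they came from separate cultures, and the p-values measure the spread between these libraries. All libraries come from a single cell line, which limits them as a model of the tumor.

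TRAFs are cytoplasmic adaptors that act, directly or through other adaptors, downstream of TNF receptors and of receptors of the interleukin-1 and Toll-like families. Most carry a RING domain at the amino end and a TRAF domain, also called a MATH domain, at the carboxyl end. TRAF1 has no RING domain, and TRAF7 has WD40 repeats in place of the TRAF domain. In resting cells TRAF3 binds NIK and TRAF2 brings the ubiquitin ligases cIAP1 and cIAP2 to the complex, which keeps NIK protein low. When NIK accumulates, it drives the processing of the NFKB2 product p100 to p52, the step that defines non-canonical NF-κB signaling. Smac mimetics lead to loss of cIAP1 and cIAP2 protein. RNAseq measures transcript levels only, so amounts of NIK, TRAF or cIAP protein are not part of these data, and fewer cells with a transcript cannot be told apart from less transcript per cell.

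TRAF1 is known as an inducible target of NF-κB, so matches to the κB motif near the members' start sites were located and are printed here before the expression values. The motif was GGGRNWYYCC, where R is A or G, N any base, W A or T, and Y C or T. The search used both strands and the RefSeq start sites (GRCh38.p14) on the GRCh38 genome, and overlapping matches were joined into a stretch. Of 35116 windows of 250 bases upstream of a RefSeq start, 5.21% held a match, and of windows of 2000 bases, 25.3% held a match. TRAF3 was the member with a match within 250 bases, TRAF1 and TRAF2 had matches within 2000 bases, and TRAF4, TRAF5, TRAF6, TRAF7 and MAP3K14 had none in these windows. The shares are per window, and TRAF1 and TRAF5 have several start sites each. The number of members with a match therefore cannot be set directly against these shares, and no excess over them is claimed. Capitals mark the matching bases, and each sequence is written 5′ to 3′ on the strand of its gene.
TRAF1, chr9:120928506-120928533, minus strand, intron: agacgcggGGGGAATTCCCCgcagagga
TRAF2, chr9:136884741-136884770, plus strand, intron: tggtagagatGGGGTTCCCCcatgctgccc
TRAF2, chr9:136885113-136885142, plus strand, intron: ttggggcggaGGGGAATTCCaactgcaaac
TRAF3, chr14:102777406-102777435, plus strand, outside the gene: cgggcgcgccGGGGATTTCCagcgcgcgag
The TRAF1 stretch covers 12 bases and lies 646 bases downstream of the most upstream RefSeq start and 1718 bases upstream of the next start. The TRAF2 matches lie 1756 and 1384 bases upstream of the RefSeq start, in an intron of a longer GENCODE transcript. The TRAF3 match ends 24 bases upstream of the start. A match is a description of the sequence and does not show that a factor binds there, and the lack of a match says only that these letters are not in the window.

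Of the 8 members, TRAF1 alone was up-regulated after BV6 treatment and none was down-regulated (edgeR quasi-likelihood test, Benjamini-Hochberg adjusted p below 0.05). Of the 23124 genes tested, 0.394% were called higher (91 genes) and 0.0562% lower (13 genes). MAP3K14 was higher in each of the 3 pairs and was called when the BC label was a block in the fit. TRAF3 and TRAF5 were also higher in each pair but were called in neither of these fits. The differences of TRAF2, TRAF4, TRAF6 and TRAF7 had opposite signs in different pairs. The groups of libraries did not overlap for TRAF1, against 4.94% of tested genes that were higher without overlap. Of the members 4 were higher in all 3 pairs, against 15.5% of tested genes. For TRAF5 these differences were small, at 0.0183, 0.20 and 0.0278 on the log2 scale in replicates 2, 3 and 4. The median log2 fold change was 0.17 over the 8 members and -0.01 over all genes tested.

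TRAF1 (GRCh38, chr9:120902393-120929173, minus strand) was measured at 10.6, 15.2, 8.58 and 14.1 CPM (counts scaled to a common library size) in untreated replicates 1 to 4 and at 232, 89.3 and 114 CPM in BV6 replicates 2 to 4. These levels rest on 517 to 872 counts in the untreated libraries and 5474 to 13010 counts in the BV6 libraries. Every BV6 library was higher than every untreated library, and the lowest BV6 library was far above the highest untreated library. The group means were 12.1 ± 3.05 CPM (SD, n = 4) and 145 ± 76.2 CPM (SD, n = 3). TRAF1 was up-regulated 11.9-fold, with a log2 fold change of 3.58 (SE 0.33, 95% interval 2.83 to 4.32) and an adjusted p of 0.00341 in edgeR with Benjamini-Hochberg adjustment. It ranked 7 by p, and 12 genes (0.0519% of those tested) had a larger absolute log2 fold change. Within the pairs, TRAF1 rose by 3.93, 3.37 and 3.01 on the log2 scale in replicates 2, 3 and 4. TRAF1 was called in each of the 7 fits that left out a library and in each of the 11 other settings tried.

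**Figure D1:**
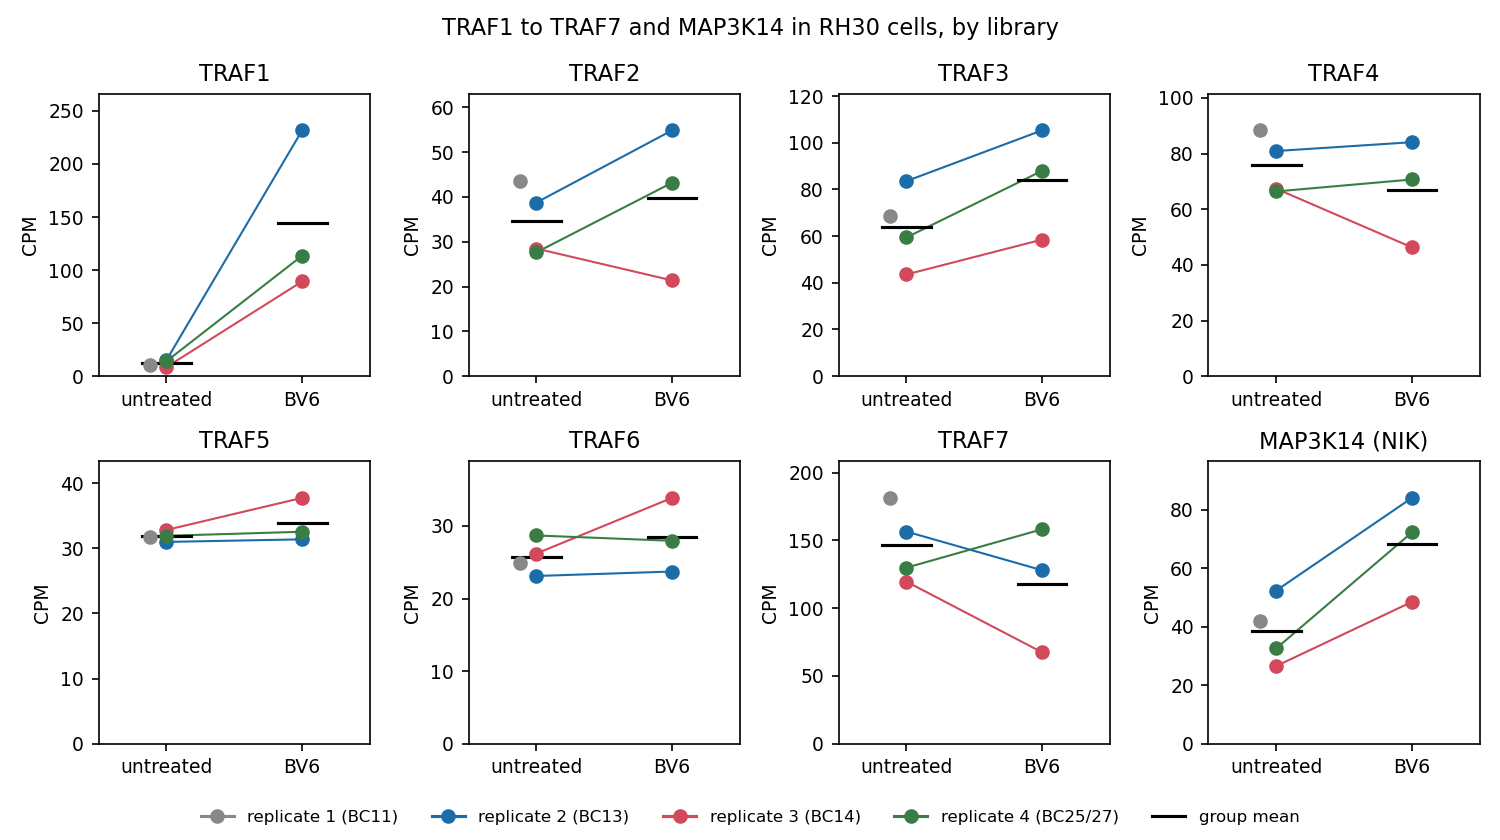
Level of each member in CPM (vertical axis, starting at 0) in untreated and BV6-treated RH30 cells. Each point is a library, colored lines join libraries with the same BC label, untreated replicate 1 (gray) has no partner, and black bars are the group means of 4 and 3 libraries. The groups do not overlap for TRAF1, every line of MAP3K14 and TRAF3 ends higher at BV6, and the lines of TRAF2, TRAF4, TRAF6 and TRAF7 slope in both directions.

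The composition of the family at the transcript level differed between the groups. Levels were compared between genes as CPM per kilobase of the union of a gene's exons (GENCODE 44), which for the members was between 3665 bases for TRAF2 and 11883 bases for TRAF3. In untreated cells the mean order was TRAF7, TRAF4, TRAF2, MAP3K14, TRAF3, TRAF5, TRAF6 and TRAF1. TRAF7 had 32.7 ± 6.19 CPM per kilobase and TRAF1 2.71 ± 0.682 CPM per kilobase (SD, n = 4). TRAF7 and TRAF4, TRAF4 and TRAF2, and TRAF3 and TRAF5 did not overlap between libraries, while the other neighbors in this order did. After BV6 treatment the mean order was TRAF1, TRAF7, TRAF4, MAP3K14, TRAF2, TRAF3, TRAF5 and TRAF6. MAP3K14 and TRAF2 changed places in it when the longest transcript gave the length (14.9 and 17.6 CPM per kilobase). TRAF1 then had 32.4 ± 17.0 CPM per kilobase and TRAF7 26.3 ± 10.3 CPM per kilobase (SD, n = 3). TRAF3 and TRAF5 were the neighbors in this order whose ranges did not overlap, and TRAF1 was above TRAF7 in 2 of 3 BV6 libraries.

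TRAF1 made up 2.75%, 4.25%, 3.11% and 4.76% of the summed level per kilobase of TRAF1 to TRAF7 in untreated replicates 1 to 4. In BV6 replicates 2, 3 and 4 its share was 40.2%, 31.1% and 24.8%. The mean share was 3.72% ± 0.942 (SD, n = 4) in untreated cells and 32.0% ± 7.72 (SD, n = 3) after BV6. TRAF1 thus went from the lowest mean level of the 7 TRAF genes to the highest. The sum itself was 73.5 ± 11.6 CPM per kilobase (SD, n = 4) and 98.5 ± 32.5 CPM per kilobase (SD, n = 3), with overlapping libraries. TRAF3 held a mean of 7.25% ± 1.22 (SD, n = 4) of the sum in untreated cells and 7.26% ± 0.397 (SD, n = 3) after BV6. Within the pairs its share went from 8.80% to 6.87%, from 5.95% to 7.67% and from 7.55% to 7.23% in replicates 2, 3 and 4.

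**Figure D2:**
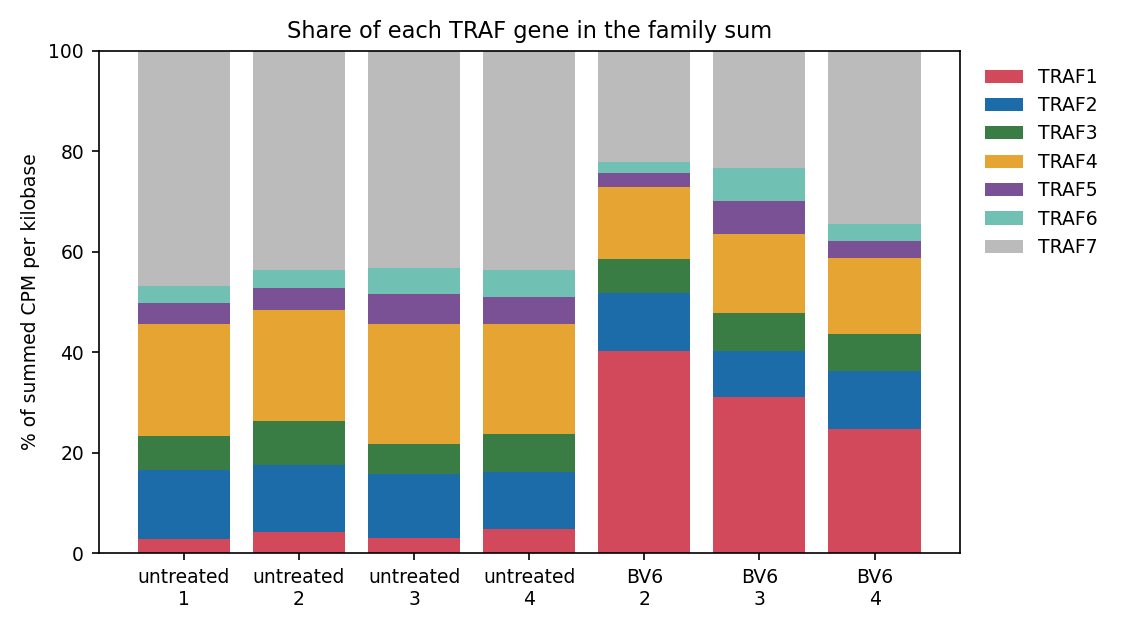
Share of TRAF1 to TRAF7 in their summed CPM per kilobase of exon (vertical axis, percent, 0 to 100), with a bar for each library. The TRAF1 segment at the base of the bars is between 2.75% and 4.76% in the untreated libraries and between 24.8% and 40.2% in the BV6 libraries.

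MAP3K14 (chr17:45263119-45317029, minus strand) encodes NIK, the kinase that starts non-canonical signaling. It was measured at 41.9, 52.3, 26.5 and 32.6 CPM in untreated replicates 1 to 4 and at 84.0, 48.4 and 72.2 CPM in BV6 replicates 2 to 4. BV6 replicates 2 and 4 were above all untreated libraries, and the groups overlapped because untreated replicate 2 was higher than BV6 replicate 3. The group means were 38.3 ± 11.3 CPM (SD, n = 4) and 68.2 ± 18.1 CPM (SD, n = 3). The log2 fold change was 0.83 (SE 0.25, 95% interval 0.28 to 1.38), with an unadjusted p of 0.00743 and an adjusted p of 0.307 in edgeR. Of all genes tested, 4.13% were higher at an unadjusted p below 0.05.

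Within the pairs, MAP3K14 was 1.60-fold, 1.82-fold and 2.21-fold higher in BV6 replicates 2, 3 and 4 than in the untreated library of the same BC label. With the BC label as a replicate block, the log2 fold change was 0.90 (SE 0.11, 95% interval 0.63 to 1.16) and the adjusted p in edgeR was 0.0163, so the gene was called. With the replicate block, 0.649% of tested genes were called higher (150 genes) and 0.294% lower (68 genes). MAP3K14 was called in none of the 7 fits without a block that left out a library, with log2 fold changes between 0.66 and 1.03. The Wald test of DESeq2 gave an adjusted p of 0.116, in a fit that called 0.557% of its 43421 genes higher (242 genes) and 0.366% lower (159 genes). These are all genes with any count, and some of them received no adjusted p. The DESeq2 shares are thus not directly comparable with those of edgeR.

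The counts of MAP3K14 share ground with those of MAP3K14-AS1, a long noncoding RNA on the opposite strand. The exons of both overlap over 858 bases, which is 15.1% of the exon union of MAP3K14. MAP3K14-AS1 was measured at 7.59, 8.89, 5.18 and 6.16 CPM in untreated replicates 1 to 4 and at 16.6, 10.1 and 13.1 CPM in BV6 replicates 2 to 4. Each BV6 library was above each untreated library. Its log2 fold change was 0.93 (SE 0.23), with an adjusted p of 0.176 in edgeR and of 0.0169 with the replicate block. The Wald test of DESeq2 gave an adjusted p of 0.0180. With GC content corrected in each library and no block, edgeR gave 0.0222. MAP3K14-AS1 was called in none of the 7 fits that left out a library. The count of MAP3K14-AS1 was between 17.0% and 20.8% of the count of MAP3K14 in all 7 libraries. The libraries were made with a stranded kit, but whether the counting used strand is not given in the sources used here, so reads of these 2 genes may not have been separated.

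**Figure D3:**
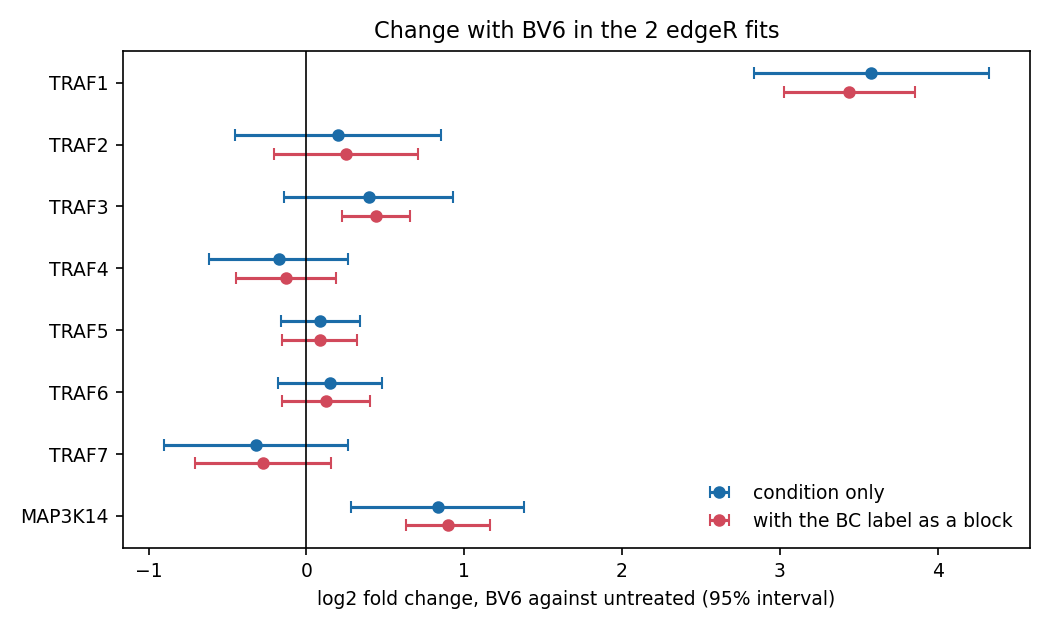
Log2 fold change of each member with BV6 and its 95% interval (horizontal axis), in the edgeR fit with condition only (blue) and in the fit with the BC label as a block (red). TRAF1 is at 3.58 and 3.44, MAP3K14 is at 0.83 and 0.90 with intervals above 0 in both fits, and the block interval of TRAF3 lies above 0 although its adjusted p was 0.0904.

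TRAF3 and TRAF2, the adaptors that hold NIK near cIAP1 and cIAP2, were not called. TRAF3 (chr14:102777449-102911500, plus strand) was measured at 68.8, 83.5, 43.6 and 59.4 CPM in untreated replicates 1 to 4 and at 105, 58.5 and 87.9 CPM in BV6 replicates 2 to 4. BV6 replicates 2 and 4 were above all untreated libraries, while BV6 replicate 3 was inside the untreated range. The log2 fold change was 0.39 (95% interval -0.14 to 0.93), with an adjusted p of 0.714 in edgeR. Within the pairs the differences were 0.33, 0.43 and 0.57 on the log2 scale. With the replicate block the log2 fold change was 0.44 (95% interval 0.23 to 0.66), with an adjusted p of 0.0904 in edgeR.

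TRAF2 (chr9:136881912-136926607, plus strand) was measured at 43.6, 38.7, 28.5 and 27.6 CPM in untreated replicates 1 to 4. In BV6 replicates 2, 3 and 4 it was at 54.8, 21.4 and 43.1 CPM. The highest and the lowest library of all 7 were BV6-treated. The log2 fold change was 0.20 (95% interval -0.45 to 0.85), with an adjusted p of 0.873 in edgeR, and it was -0.10 without BV6 replicate 2. The pair differences were 0.50, -0.41 and 0.64 on the log2 scale.

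TRAF5 and TRAF6 had the smallest spread between untreated libraries among the members. TRAF5 (chr1:211326615-211374946, plus strand), a close relative of TRAF2 that acts at TNF receptors, was measured at 31.8, 31.0, 32.8 and 31.9 CPM in untreated replicates 1 to 4. It was at 31.4, 37.8 and 32.6 CPM in BV6 replicates 2, 3 and 4. Apart from BV6 replicate 3, the BV6 libraries were inside the untreated range. Its log2 fold change was 0.09 (95% interval -0.16 to 0.34), with an adjusted p of 0.85 in edgeR. This interval excluded the estimate of 0.83 for MAP3K14 but overlapped the 95% interval of MAP3K14, 0.28 to 1.38. TRAF6 (chr11:36483769-36510272, minus strand) is the ubiquitin ligase of interleukin-1 receptor and Toll-like receptor signaling. It was measured at 24.9, 23.1, 26.2 and 28.7 CPM in untreated replicates 1 to 4 and at 23.7, 33.9 and 28.0 CPM in BV6 replicates 2 to 4. The groups overlapped, and BV6 replicate 3 was the highest library. The log2 fold change was 0.15 (95% interval -0.18 to 0.48), with an adjusted p of 0.815 in edgeR.

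TRAF4 and TRAF7 had the highest levels per kilobase of the untreated cells and were on average lower after BV6, without a call. TRAF4 (chr17:28744011-28750956, plus strand), a TRAF with roles in development and cell migration, was measured at 88.3, 80.9, 67.3 and 66.4 CPM in untreated replicates 1 to 4. It was at 84.1, 46.3 and 70.7 CPM in BV6 replicates 2, 3 and 4. Its log2 fold change was -0.18 (95% interval -0.62 to 0.26), with an adjusted p of 0.833 in edgeR, and it was 0.04 without BV6 replicate 3. TRAF7 (chr16:2155698-2178129, plus strand) was measured at 181, 156, 120 and 130 CPM in untreated replicates 1 to 4 and at 128, 67.4 and 158 CPM in BV6 replicates 2 to 4. Its log2 fold change was -0.32 (95% interval -0.90 to 0.27), with an adjusted p of 0.779 in edgeR. In both genes BV6 replicate 3 was the lowest library and the other BV6 libraries were inside the untreated range. The last exons of TRAF7 overlap those of CASKIN1 on the opposite strand over 950 bases, 21.2% of the exon union of TRAF7, and the count of CASKIN1 was between 10.0% and 17.1% of that of TRAF7. On the strand opposite to TRAF4, GENCODE has 2 long noncoding RNAs that share 490 and 287 bases with its exons and are not analyzed here. None of these adjusted p-values shows that a level did not differ.

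BV6 replicate 3 stood apart from the other libraries and moved with several of these values. Its total count of 59465798 was within the range of the 7 libraries (54070030 to 77220882), but it lay farthest out on the first principal component, which held 35.9% of the variance. GC-rich genes were low in this library. Of the genes tested, 18098 had a known GC content. The median deviation of the 3620 GC-richest minus that of the 3620 GC-poorest of them was -0.76 on the log2 scale in BV6 replicate 3, 0.59 in untreated replicate 1 and between -0.09 and 0.17 in the other libraries. TRAF2, TRAF7 and TRAF4, with longest transcripts of 61.3%, 60.5% and 56.6% GC, differed in BV6 replicate 3 from the mean of the other libraries by -0.84, -1.09 and -0.71 on the log2 scale. TRAF6 and TRAF5, with 41.2% and 42.8% GC, were higher in it by 0.40 and 0.24. On the same scale TRAF1 (55.4% GC), MAP3K14 (59.0% GC) and TRAF3 (54.6% GC) differed by 1.65, 0.03 and -0.30. These genes were higher in BV6 replicate 3 than in its untreated partner. With GC content corrected in each library and the BC label as a block, TRAF2 and TRAF3 were called, with log2 fold changes of 0.37 and 0.46 and adjusted p-values of 0.0299 and 0.00455 in edgeR, among the 78.3% of tested genes with a known GC content. That fit called 3.25% of its 18098 genes higher and 3.34% lower. With the GC correction and no block neither gene was called, with adjusted p-values of 0.526 for TRAF2 and 0.572 for TRAF3 in edgeR.

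**Figure D4:**
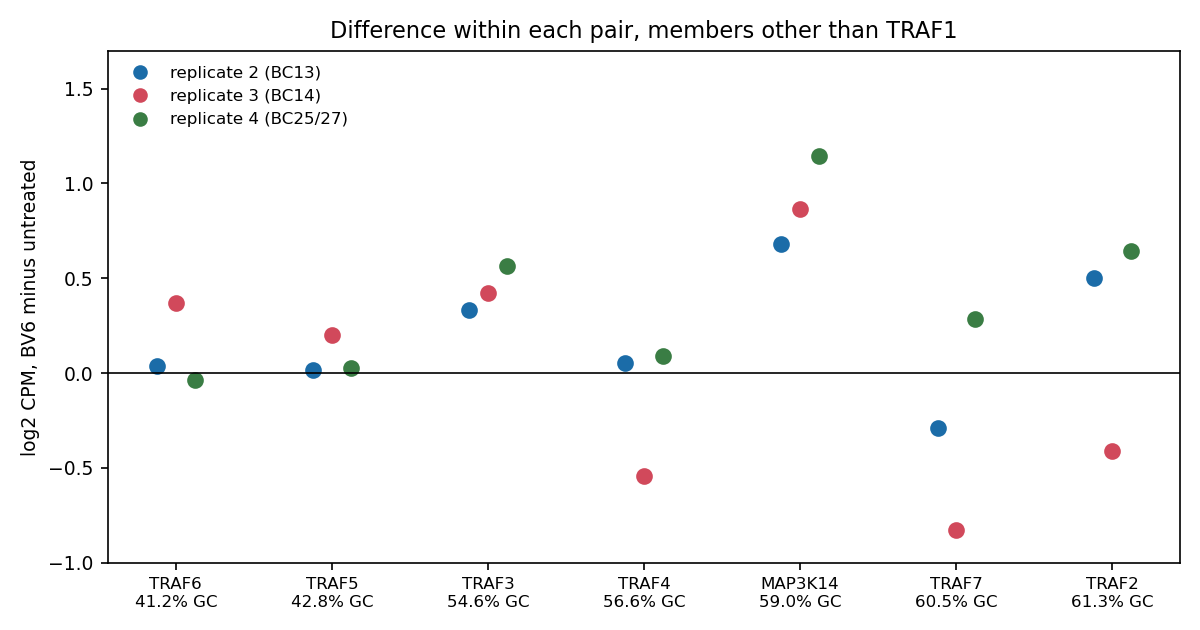
Difference in log2 CPM between the BV6 and the untreated library of each BC label (vertical axis) for the 7 members other than TRAF1, ordered from left to right by the GC content of their longest transcripts. The points of replicate 3 (red) are at 0.37 and 0.20 for TRAF6 and TRAF5, the members with the lowest GC content, and at -0.54, -0.83 and -0.41 for TRAF4, TRAF7 and TRAF2, while all 3 points of MAP3K14 and of TRAF3 are above 0.

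The partners of the TRAFs and of NIK were taken from 6 lists that together held 99 genes, of which 92 were tested. In these lists 7 genes rose and none fell (edgeR, adjusted p below 0.05), and with the replicate block 10 rose and 2 fell. Of all tested genes, 0.394% were called higher and 0.0562% lower without the block, and 0.649% and 0.294% with it. The lists were chosen with earlier results of these data known, so their counts are not independent evidence beside these shares. Among 24 receptors that signal through TRAFs, directly or through other adaptors, 18 were tested and TNFRSF9 rose. TNFRSF9 encodes 4-1BB, a receptor of the TNF family that binds TRAF1 and TRAF2. It was measured at 2.45, 3.97, 1.76 and 4.09 CPM in untreated replicates 1 to 4 and at 24.5, 15 and 27.8 CPM in BV6 replicates 2 to 4. Each BV6 library was above each untreated library, with a log2 fold change of 2.87 (SE 0.32) and an adjusted p of 0.00574 in edgeR. With the replicate block, TNFRSF19 and NGFR, which were chosen after their values were seen, fell by 1.27 and 0.59 on the log2 scale, with adjusted p-values of 0.0180 and 0.0471 in edgeR. The list median was -0.10 in the fit with condition only and 0.01 with the block.

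Among 21 ubiquitin enzymes and regulators of the TRAF and NIK complexes, 4 rose and none fell, with a median log2 fold change of 0.15. BIRC3 and BIRC2 encode cIAP2 and cIAP1, the ligases that TRAF2 recruits. BIRC3 was measured at 1.64, 4.74, 1.26 and 2.12 CPM in untreated replicates 1 to 4 and at 102, 57.1 and 52.3 CPM in BV6 replicates 2 to 4, a log2 fold change of 4.86 with an adjusted p of 0.00341 in edgeR. BIRC2 was measured at 52.0, 76.7, 68.4 and 67.5 CPM in untreated replicates and at 283, 152 and 142 CPM in BV6 replicates, a log2 fold change of 1.54 with an adjusted p of 0.0269 in edgeR. In both genes the groups did not overlap. The other genes that rose were CYLD and TNFAIP3, which encode deubiquitinating enzymes that restrain NF-κB signaling. Their log2 fold changes were 0.96 and 0.86, with adjusted p-values of 0.0109 and 0.0145 in edgeR. BIRC3 and CYLD were called in each of the 7 fits that left out a library, and BIRC2 and TNFAIP3 in 3 each. BIRC2 was not called without untreated replicate 1, 2, 3 or 4 (adjusted p 0.0558 to 0.101 in edgeR), nor TNFAIP3 without BV6 replicate 2 or untreated replicate 1, 3 or 4 (0.0536 to 0.0775).

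The NIK axis list held 10 genes, among them kinases, subunits and inhibitors of canonical NF-κB signaling. In this list NFKB2 and NFKBIA rose, and the list median was 0.39. NFKB2 encodes p100, the protein that is processed after NIK activation, and was measured at 93.8, 84.9, 56.2 and 74.6 CPM in untreated replicates 1 to 4 and at 289, 176 and 272 CPM in BV6 replicates 2 to 4. Its log2 fold change was 1.67, with an adjusted p of 0.0110 in edgeR. NFKBIA encodes IκBα, the inhibitor of canonical NF-κB, and had a log2 fold change of 2.17 with an adjusted p of 0.0116 in edgeR. Without untreated replicate 4, neither NFKB2 nor NFKBIA was called (adjusted p 0.0536 and 0.0579 in edgeR). RELB, the partner of p52, was measured at 11.3, 14.7, 4.73 and 8.0 CPM in untreated replicates and at 22.9, 11.3 and 19.9 CPM in BV6 replicates. BV6 replicate 3 was inside the untreated range, and the log2 fold change of 0.90 had an adjusted p of 0.556 in edgeR. With the replicate block RELB, NFKBIE and NFKB1 also rose, with adjusted p-values of 0.0322, 0.00832 and 0.0454 in edgeR. NFKBIE and NFKB1 were chosen after their values were seen. Of the 10 listed genes 5 were thus called, in a fit that called 0.649% of all tested genes higher. This count covers the whole list and not the non-canonical genes alone. 

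None of the 18 adaptors and regulators that bind TRAFs, of the 21 kinases downstream of them or of the 5 tested genes with a related MATH domain was called in either of the edgeR fits. At an unadjusted p below 0.05, 1, 2 and 1 genes of these lists were higher and none was lower, beside 4.13% of all tested genes higher and 4.26% lower. Their median log2 fold changes were 0.04, 0.02 and 0.16, and that of the kinases was -0.01 with the block. IRAK2 had the largest log2 fold change of the adaptors, 1.67 with an adjusted p of 0.281 in edgeR, at a level below 1 CPM in every library. MAP3K8 had the largest among the kinases, 0.53 with an adjusted p of 0.560 in edgeR, and TRIM37 among the MATH genes, 0.39 with an adjusted p of 0.349.

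**Figure D5:**
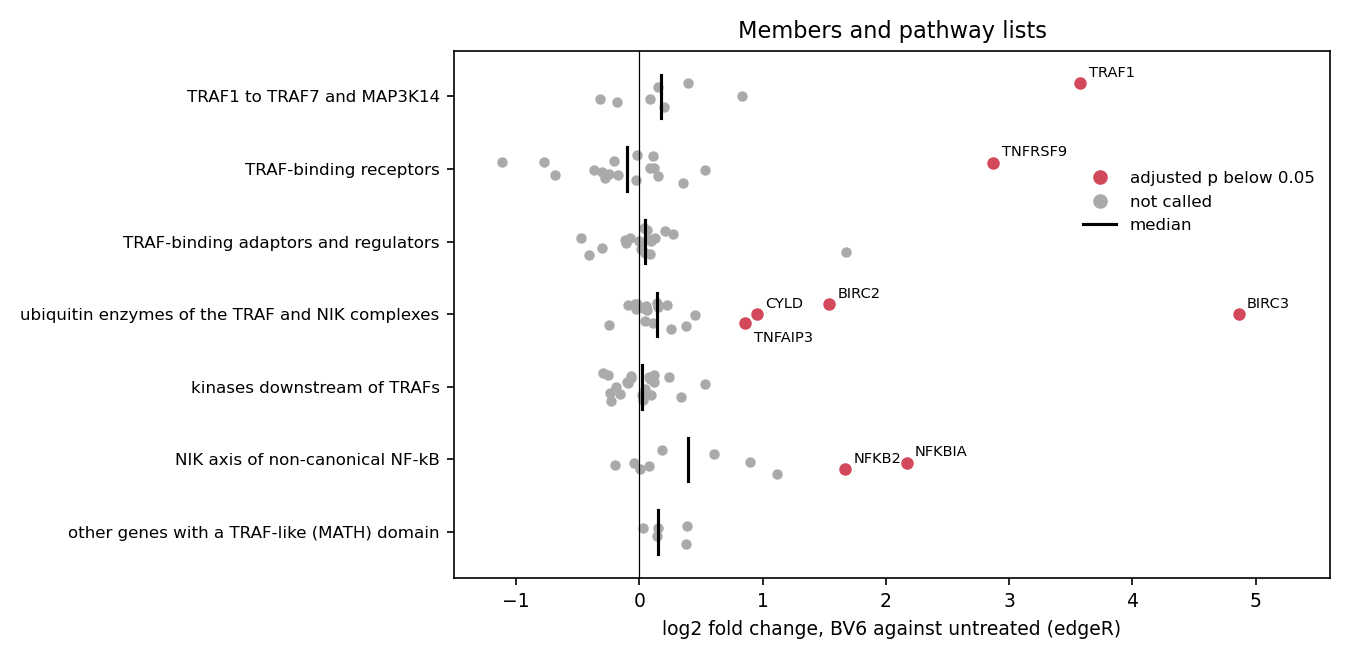
Log2 fold change with BV6 (horizontal axis) of the 8 members and of the tested genes of the 6 pathway lists (rows). Red points are genes called at an adjusted p below 0.05 in edgeR, gray points are genes not called, and black bars are the medians. The called genes sit among the members (TRAF1), the receptors (TNFRSF9), the ubiquitin enzymes (BIRC3, BIRC2, CYLD and TNFAIP3) and the NIK axis list (NFKB2 and NFKBIA).

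The genes whose log2 CPM followed TRAF1 most closely over the 7 libraries were VIM (Pearson r = 0.996), AL133415.1 (0.995), GJC1 (0.994), ZNF697 (0.991) and SLC25A26 (0.989). MAP3K14 correlated with TRAF1 at 0.857. The genes most like MAP3K14 were NECAP2 (0.993), MAP3K14-AS1 (0.987), RELB (0.980), PKM (0.979) and OAS3 (0.977). The log2 fold changes of the 5 genes most like TRAF1 were 0.55, 0.58, 0.31, 1.08 and 0.88 in that order, beside 3.58 for TRAF1. VIM and GJC1 among them were not called (adjusted p 0.0561 and 0.280 in edgeR). The 5 genes most like MAP3K14 had log2 fold changes between 0.24 and 0.93, and none was called in the fit with condition only. The correlations describe 7 libraries that share their treatment groups and their differences in depth and composition.

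The label of the cells was checked against marker genes. All 14 genes of the rhabdomyosarcoma and skeletal muscle list were above 3 counts in some library. So were all 8 leukocyte, all 4 epithelial and all 3 endothelial markers and 7 of 8 NK cell markers. This criterion therefore does not tell the cell types apart. The muscle list summed to between 2985 and 3898 CPM in untreated and between 2412 and 3800 CPM in BV6 libraries. Its highest means were those of ACTC1, DES and FGFR4, while the means of MYF6 and MYH8 were below 1 CPM. Sums of leukocyte markers were between 3.63 and 5.52 CPM in untreated and between 5.42 and 6.84 CPM in BV6 libraries, and those of epithelial markers were below 1 CPM in every library. Sums of NK cell markers were between 354 and 494 CPM in untreated and between 274 and 400 CPM in BV6 libraries, most of it from NCAM1. Endothelial markers, mainly PECAM1, summed to between 48.9 and 69.3 CPM in untreated and between 26.4 and 58.5 CPM in BV6 libraries. The means of PECAM1, VWF and CDH5 were 51.1, 1.1 and 0.146 CPM. No marker was at 0 in every library, and the part of these cell types in the members' values was not tested.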

How the data were processed

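Of the RNAseq libraries of the study, 7 were analyzed here. The authors prepared poly(A)-selected, stranded, paired-end libraries, mapped the reads to GRCh38 with STAR 2.6.1d and deposited raw counts per gene from a union model of Ensembl isoforms. Whether counting used strand is not given in the sources used here. Counts summed to 54070030 to 77220882 per library, and 3 counts, the lowest level taken as detected, correspond to 0.0389 to 0.0557 CPM. This covers counting error only. The totals exceed the read numbers the study gives, so both mates of a pair may have been counted, and a printed count may then stand for fewer fragments.

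The main test was the quasi-likelihood test of edgeR 4.0.16 in R 4.3.3, with TMM factors and condition as the only term. It ran on the 23124 genes kept by filterByExpr at a minimum count of 10, and p-values were adjusted by Benjamini-Hochberg over all of them. The study's methods name the Wald test of DESeq2, which was run as an alternative (DESeq2 1.42.0). Standard errors were derived from the fold change and its F statistic. CPM refers to the TMM-normalized library size. Principal components and correlations used log2 CPM with a prior count of 2. No count column lacked a sample.

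The BC label was taken as a pairing. Deviations from the group means over the 6 paired libraries correlated at 0.515, 0.322 and 0.197 in pairs 2, 3 and 4, and with untreated replicate 1 included in its group mean at 0.462, 0.438 and 0.0847. In the latter check, libraries with different BC labels correlated between -0.437 and 0.278, some of them more than pair 4. Alternatives were RLE factors, no filter, at least 10 counts in every library, limma-voom (limma 3.58.1), the replicate block with 7 or with the 6 paired libraries, halved counts and leaving out each library. Fits limited to genes with a known GC content, and with a loess correction for it (span 0.5), were chosen after seeing the data.

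GENCODE 44 (GRCh38) gave coordinates, overlaps, exon lengths and the GC content of the longest transcript, with 36611 genes matched by symbol and 863 by an older symbol. The members and gene lists were chosen with earlier results of these data known. The text names every member, the list genes called in edgeR, the gene of each list with the largest absolute log2 fold change, BIRC2, BIRC3, NFKB2 and RELB, genes whose exons overlap a member's, and the 5 genes most correlated with TRAF1 and with MAP3K14.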

Additional observations from a re-analysis of the deposited data

How the results depend on the processing

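TRAF1 was called in every fit tried, and TRAF5, TRAF6 and TRAF7 were called in none and kept their direction. MAP3K14 was called with the replicate block (log2 fold change 0.90), with the 3 pairs and the replicate block (0.90) and with the GC correction and the block (0.98). Untreated replicate 1 has no BV6 partner, so the fold changes of all these block fits rest on the same 3 pairs. For 78.3% of the tested genes a GC content was known, which is too few for a check over all genes, so the GC correction is void as such a check and holds only for those genes. Within them, TRAF2 (0.37) and TRAF3 (0.46) were called with GC correction and block. Leaving out a library, TRAF2 was between -0.10 and 0.51 and TRAF4 between -0.37 and 0.035. The cause was not tested.

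Genes called higher and lower numbered 150 and 68 with the replicate block, 214 and 127 with the 3 pairs and the block, 242 and 159 with DESeq2, 169 and 73 without a filter, 154 and 52 with GC correction, and 589 and 604 with GC correction and block. Leaving out a library gave 36 to 80 higher and 2 to 10 lower, with the lowest of both without untreated replicate 3; every library but BV6 replicate 3 moved the higher count by over 1.5 times. In the NIK axis list 5 genes were called higher with the block and with the 3 pairs, and 6 with GC correction and block (median 0.54). Leaving out a library gave 0 to 3, with 0 without untreated replicate 4. Of the ubiquitin enzymes 6 were called with GC correction and block and, leaving out a library, 2 to 4 (2 without untreated replicate 1, 3 or 4; median 0.10 to 0.21), when the adaptor median was 0.013 to 0.058. The receptor median of -0.10 was 0.07 with DESeq2, 0.06 without a filter, 0.01 with the block and 0.03 with GC correction and block, and the kinase median was within 0.04 of 0 on either side. Halved counts changed no call of a member or named list gene. Receptors called lower numbered 2 with the block, with the 3 pairs and with GC correction and block, and 1 with DESeq2 and without a filter. With GC correction and block, 1 adaptor and 1 MATH gene were called higher. The replicate block changed no other call of a member or of these list counts.

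With the length of the longest transcript in place of the exon union, untreated means were 15.3 (TRAF2), 26.2 (TRAF4), 6.43 (TRAF5) and 39.9 (TRAF7) CPM per kilobase, and BV6 means 17.6 (TRAF2), 23.2 (TRAF4) and 6.84 (TRAF5). The mean TRAF1 share was then 2.80% in untreated and 25.9% in BV6 libraries. The lowest count of any member was 517 (TRAF1), far above the floor of 3 counts.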
